A study of Rattus norvegicus with 16 samples.

Results

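The pair-fed, zinc-sufficient rats of the study were compared with each other: 4 rats sampled on day 16 (group ZRPF) against 4 rats sampled on day 10 (group PF). These 8 rats, taken by their group labels, supply 8 of the 16 arrays of the series. Each array measured RNA from the diencephalon of 1 rat, and no animals were pooled. All were male Sprague-Dawley (SD) rats that started the regime at 5 weeks of age after 1 week of adaptation on the control diet, which held 30 mg zinc per kg. PF rats received, for 10 days, as much control diet as the zinc-deficient rats (ZD) of their experiment ate, on 0.6 mg zinc per kg. ZRPF rats were pair-fed in the same way for 10 days to the rats of the recovery group (ZR) and were then given 13 g of control diet daily for 6 days. ZR rats were fed 0.6 mg zinc per kg at first and 30 mg per kg at the last. PF and ZRPF rats took a 48 h choice test between water and 300 mM NaCl on days 6 to 8. Only ZRPF took a second one, on days 14 to 16, which ended on the day of sampling. Of 6 pair-fed rats in each experiment, 1 ZRPF rat was left out by the submitters for its salt preference, and 4 rats per group were picked as average in body weight, plasma zinc and salt preference, so that the spread between arrays is not that of all rats. Age, ration, salt test and experiment therefore differ together between the groups and cannot be told apart. The labels give no labelling run, scan or other batch.

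The diencephalon holds the thalamus, the relay of sensory and motor signals to the cortex, and the hypothalamus, which governs feeding, water balance, body temperature and pituitary hormones. In rats of this age its neurons are still maturing, myelin is still being laid down, and the growth and reproductive axes are starting up. Food restriction acts on many of the same hypothalamic circuits. Pair-fed controls are used to separate the effect of a missing nutrient from that of eating less.

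Values are log2 of the deposited signal intensities, so that a difference of 1 is a doubling. Array values are always given in the order PF 1, 2, 4 and 6, then ZRPF 2, 4, 5 and 6. Signals of 2 arrays correlated at 0.978 to 0.987 within a group and at 0.963 to 0.971 between PF and ZRPF. The median signal ran from 156 to 171 over the 8 pair-fed arrays, and the number of arrays limits the precision of each value. Probe sets with a mean log2 signal of at least 7.35 were tested, 15521 in all, and 9278 genes were each represented by the brightest of their tested probe sets. A gene is called when its adjusted p in limma is below 0.05.

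The labelling controls differed between the groups before any rat gene is considered. Poly-A spikes are bacterial transcripts (dap, lys, phe, thr) that carry a poly-A tail and are added to total RNA, so they pass through reverse transcription and amplification with the sample. Their mean log2 signal over 24 probe sets was 7.96, 7.85, 8.09 and 8.03 in PF and 6.63, 6.96, 6.71 and 6.76 in ZRPF. All 4 ZRPF arrays lay below all 4 PF arrays, in the mean and in each of the 24 probe sets. The mean difference was -1.22 (exact permutation test, two-sided, p = 0.0286, the smallest that 4 against 4 arrays can give).

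The gap widened along the spikes, from the 3′ end, where reverse transcription starts, to the 5′ end. It was -0.78 over the 8 probe sets at the 3′ end, -1.18 in the middle and -1.70 at the 5′ end. For dap, the brightest spike, the 5′ probe set had a mean of 9.01 ± 0.11 (SD, n = 4) in PF and 6.27 ± 0.27 in ZRPF. The rat beta-actin control showed a gradient of the same direction. Its log2 ratio of 3′ to 5′ signal was 1.49, 1.54, 1.73 and 1.71 in PF and 2.48, 2.31, 2.29 and 2.05 in ZRPF, without overlap (difference 0.66, exact permutation p = 0.0286). The same ratio of GAPDH was 0.12 ± 0.02 in PF and 0.23 ± 0.08 in ZRPF, also without overlap. Hybridisation controls, which are added after labelling, overlapped between the groups, at 11.29 ± 0.12 and 11.44 ± 0.24 (difference 0.15, exact permutation p = 0.314). In the other line of the study, ZR against ZD, which shares no array with this comparison, the spikes differed by -1.29 and the beta-actin ratio by 0.62. The labelling controls thus moved with the sampling day in both lines, and their part in the gene results was not tested apart from the fits with these controls as covariates, given below.

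**Figure D1:**
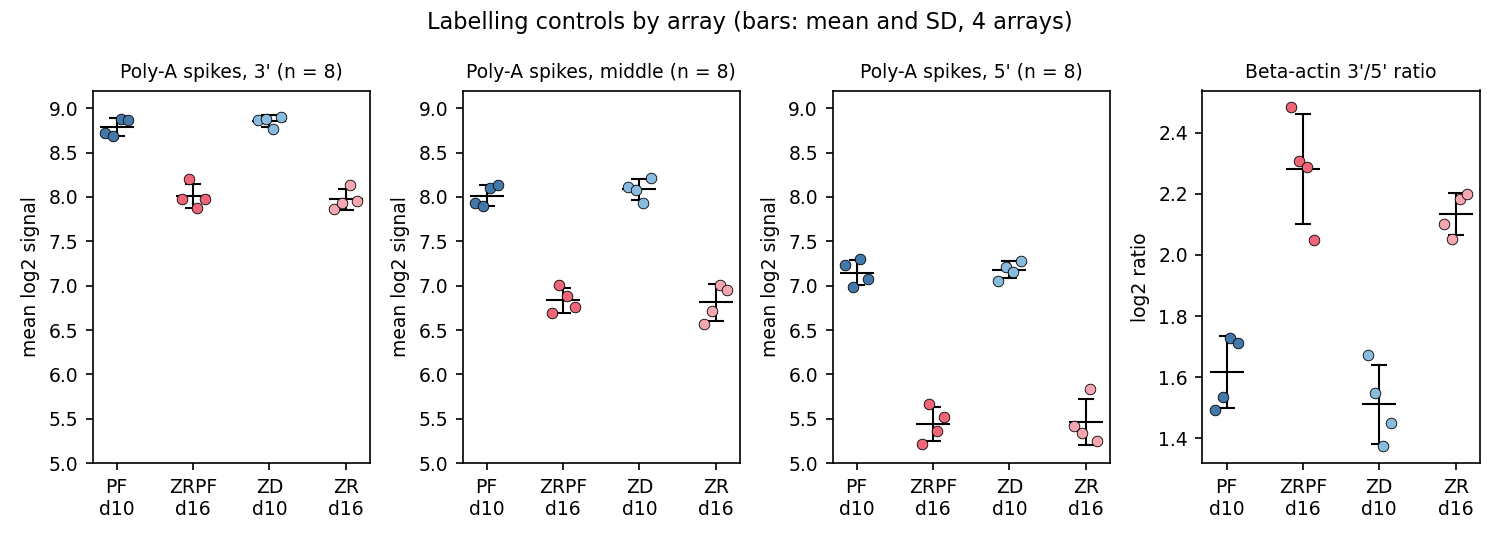
Mean log2 signal of the poly-A spike probe sets at the 3′ end, in the middle and at the 5′ end, and the log2 ratio of the 3′ to the 5′ beta-actin probe set, for each array of the 4 groups (points), with mean and SD (bars, 4 arrays). Both day-16 groups lie below both day-10 groups in the spikes, by -0.78 at the 3′ end and -1.70 at the 5′ end for ZRPF against PF, and above them in the beta-actin ratio.

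Between day 16 and day 10, 1427 of 9278 genes were called (15.4%), of which 858 were higher in ZRPF (9.25%) and 569 lower (6.13%). Counts of list members given below are to be read beside these shares. Over probe sets the count was 2430 of 15521 (15.7%), with 1475 higher (9.5%) and 955 lower (6.15%). In 1993 genes (21.5%) no array of one group lay within the range of the other, with ZRPF above in 11.9% and below in 9.6%. Most differences were small: the median size was 0.46 among higher and 0.34 among lower probe sets, and 125 and 26 of them reached 1. Scaling changed the balance. With each array centred on its median, 975 probe sets were higher and 2146 lower, so that the share of higher calls was 31.2% in place of 60.7%. With the poly-A mean as a covariate, 0 probe sets passed in limma (954 at an unadjusted p under 0.05), and the median standard error was 0.44 in place of 0.11, since this covariate divides the arrays as the day does. With the beta-actin ratio as a covariate, an alternative added after seeing the data, 7 passed, and with the GAPDH ratio 771.

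**Figure D2:**
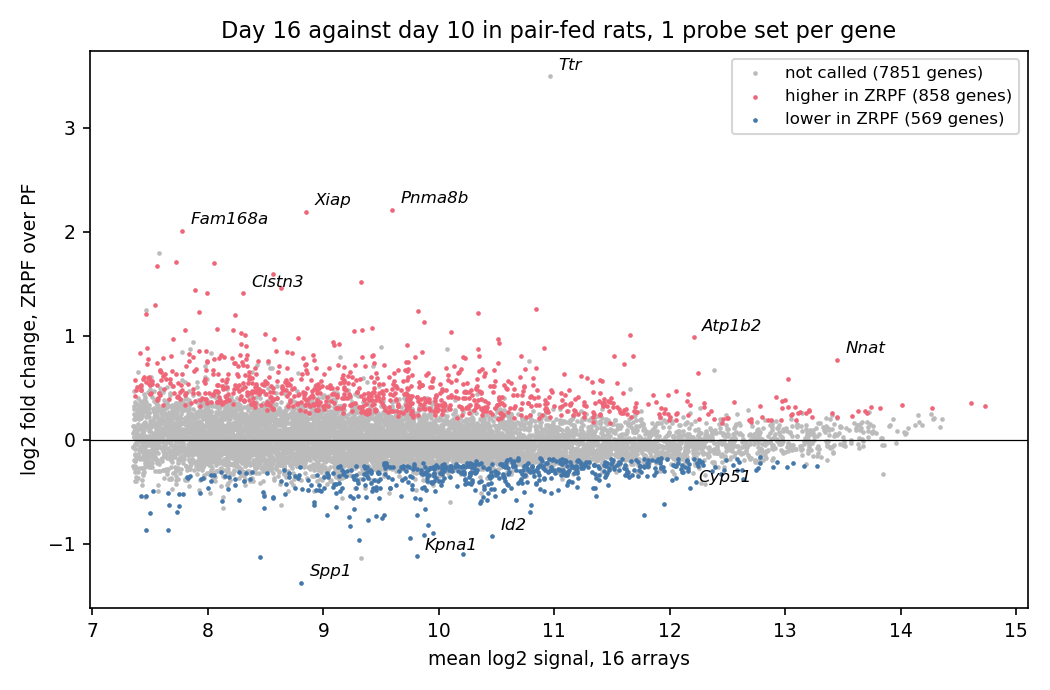
Log2 fold change of ZRPF over PF against the mean log2 signal of all 16 arrays for 9278 genes, 1 probe set each, with 858 genes called higher in red, 569 called lower in blue and the others in grey. Higher calls reach 2.21 (Pnma8b) and lower calls -1.37 (Spp1), while Ttr, at 3.49, was not called.

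The gene with the smallest p among the higher ones was Atp1b2, the beta-2 subunit of the sodium pump, which is prominent in astrocytes. Its log2 signals were 11.70, 11.58, 11.80 and 11.78 in PF and 12.72, 12.64, 12.72 and 12.71 in ZRPF. The groups lay about 1 log2 unit apart with little spread, and the signal was 1.98-fold higher in ZRPF (log2 fold change 0.98 ± 0.07 (SE), adjusted p = 7.72e-08 in limma). Xiap, an inhibitor of caspases, had 8.03, 7.86, 7.88 and 7.43 in PF and 10.09, 10.13, 9.97 and 9.77 in ZRPF. Each ZRPF array was above every PF array, and the fold was 4.57 (2.19 ± 0.15, adjusted p = 7.72e-08). Mapre2, a protein of microtubule ends, rose by 0.93 ± 0.07, and Map1a, a microtubule-associated protein of mature neurons, by 0.68 ± 0.07. Pals2, a scaffold of cell junctions, rose by 1.25 ± 0.10 on its brightest probe set, but of its 4 other tested probe sets 1 fell by 0.30 and 3 were not called.

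Other genes of the 12 with the smallest p among those higher were Zfp74, a zinc finger protein (1.44), Npepps, an aminopeptidase of the cytosol (0.71), Naa15, a subunit of an N-terminal acetyltransferase (1.13), Ddx39b, a helicase of splicing and mRNA export (0.89), and Tmem151a, a membrane protein (0.80). For Naa15 the other 3 tested probe sets stood at -0.02, 0.18 and 0.07 and were not called. Genes with larger but noisier changes were Pnma8b, with 9.06, 8.24, 8.57 and 8.52 in PF and 11.36, 10.96, 10.45 and 10.47 in ZRPF. Its groups lay more than 1 unit apart, and its second probe set rose by 1.55. Fam168a rose by 2.01 ± 0.23, Dnmt3a, a DNA methyltransferase of postnatal neurons, by 1.71 ± 0.26, and Axin2, a feedback inhibitor of Wnt signalling, by 1.67 ± 0.23. Vof16 rose by 1.70 ± 0.43, and its groups overlapped, since PF 2 at 8.52 lay above ZRPF 6 at 8.37.

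Among the genes that fell, Dync1li1, a light intermediate chain of the dynein motor, had the smallest p. Its signals were 10.38, 10.44, 10.23 and 10.28 in PF and 9.47, 9.56, 9.29 and 9.36 in ZRPF. The groups lay far apart, and the difference was -0.91 ± 0.07 (adjusted p = 2.7e-07 in limma), with a second probe set at -0.86. Kpna1, an importin of nuclear transport, had 10.29, 10.43, 10.19 and 10.40 in PF and 9.31, 9.30, 8.97 and 9.26 in ZRPF. It was lower in all 4 ZRPF arrays, by -1.12 ± 0.09, with -0.43 on a second probe set that passed and -0.09 on another that did not.

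Id2, an inhibitor of basic helix-loop-helix factors, fell by 0.93 ± 0.11 on the log2 scale, from 10.79, 10.80, 11.07 and 10.99 to 9.77, 10.32, 9.98 and 9.88. The groups did not overlap, but the second Id2 probe set stood at -0.19 and was not called. Rasal2, a GTPase-activating protein for Ras, stood at -0.73, and Strn, the scaffold striatin, at -0.44. Further genes that fell were Cmpk1, a nucleotide kinase (-0.29), Mmgt1, a subunit of the membrane protein insertase of the endoplasmic reticulum (-0.49), Agpat4, an acyltransferase of phospholipid synthesis (-0.51), and Prickle1, of planar cell polarity (-0.39). Second probe sets stood at -0.20 for Strn and 0.02 for Mmgt1, neither called. The fall of largest size was that of Spp1, osteopontin, with 9.72, 9.74, 9.08 and 9.52 in PF and 8.05, 7.88, 7.86 and 8.79 in ZRPF (-1.37 ± 0.32, adjusted p = 0.00713 in limma). ZRPF 6 was the highest of its group and still below all PF arrays. Cyp26b1, which degrades retinoic acid, fell by 1.12 ± 0.23 on this scale and Cyp2j10, a cytochrome P450, by 0.96 ± 0.18. Rab5c, a GTPase of early endosomes, stood at -0.94 ± 0.27, but ZRPF 6 at 9.91 lay within the PF range, and the call was lost when PF 2, PF 4, ZRPF 2, ZRPF 4 or ZRPF 5 was left out (adjusted p up to 0.082).

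**Figure D3:**
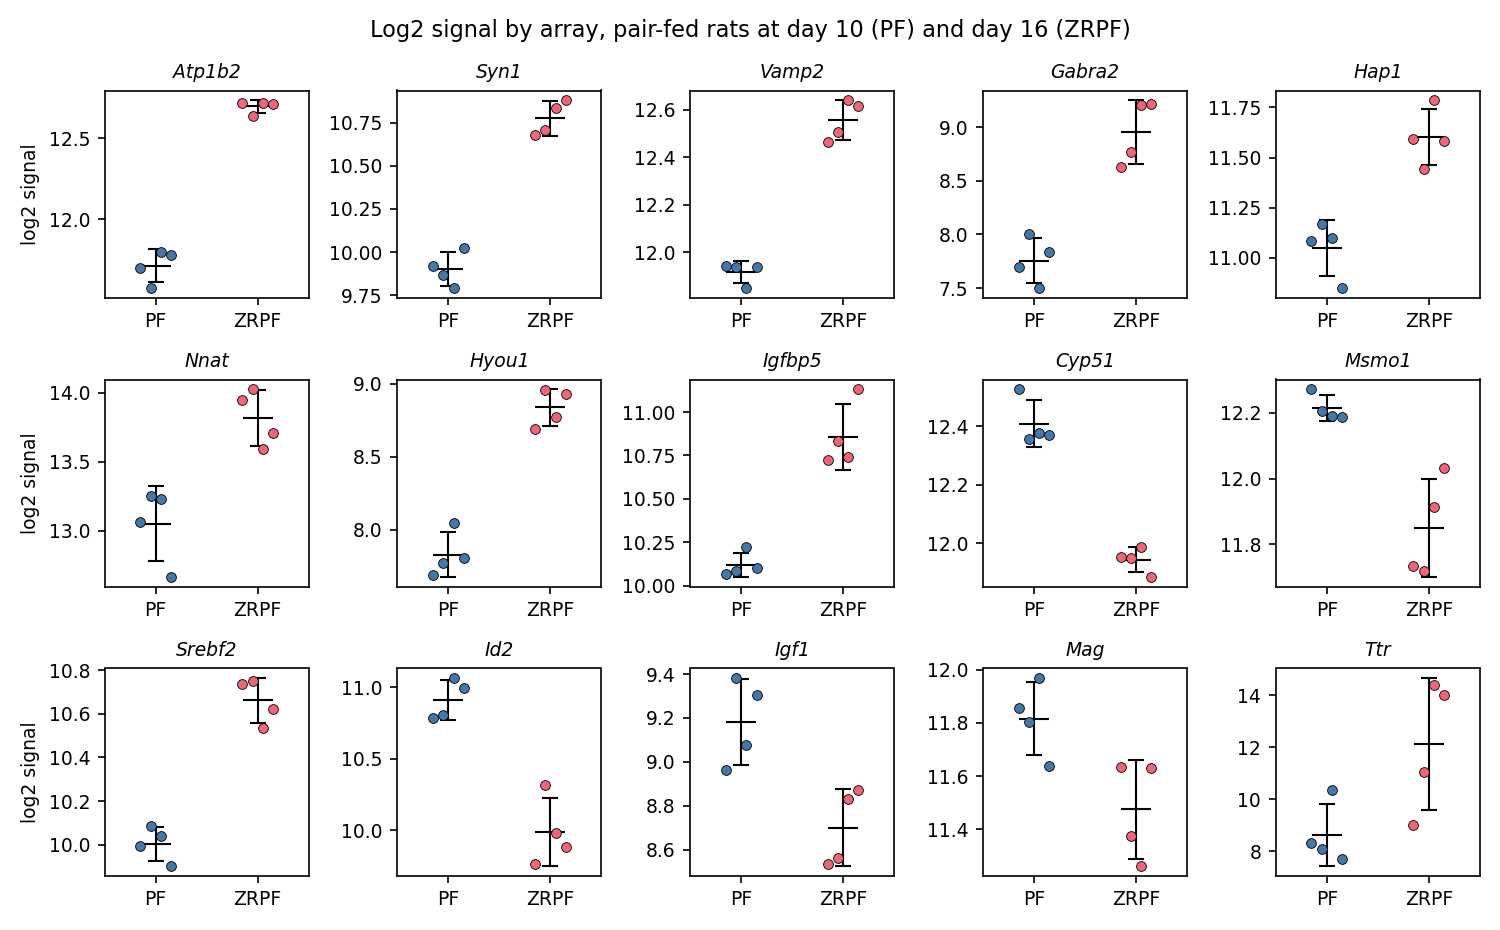
Log2 signal in each PF and ZRPF array (points) with mean and SD (bars, 4 arrays) for 15 genes named in the text, with a separate vertical scale, not starting at 0, for each gene. The groups do not overlap in 14 of the 15, from Atp1b2 to Mag, and overlap in Ttr, whose ZRPF arrays run from 9.03 to 14.37. The 14 were shown as called genes, and the groups do not overlap in 21.5% of all 9278 genes.

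Some genes of synaptic transmission rose in ZRPF, and none of the vesicle and receptor lists fell. Transmitter is stored in synaptic vesicles and released when vesicle and membrane SNARE proteins zip together. Of 27 tested genes of vesicles and SNAREs, 9 rose and 0 fell, where 9.25% of all genes rose. The median over the list was 0.07, against -0.01 over all genes, so the rest of the list did not stand above the other genes by much. Syn1, synapsin I, which tethers vesicles in reserve, had 9.92, 9.87, 9.79 and 10.02 in PF and 10.68, 10.71, 10.83 and 10.88 in ZRPF. All ZRPF arrays were above all PF arrays, by 0.87 ± 0.09 (adjusted p = 2.67e-06 in limma), and the second probe set rose by 0.64.

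Vamp2, the vesicle SNARE, had 11.94, 11.94, 11.85 and 11.94 in PF and 12.46, 12.51, 12.64 and 12.61 in ZRPF, a 1.56-fold difference. Its partner on the plasma membrane, Stx1a, chosen after its value was seen, rose by 0.64 ± 0.13. Syt5, a calcium sensor, rose by 0.82 ± 0.15, and Dnm1, the dynamin that pinches off recycled vesicles, by 0.31 ± 0.05. The other members that rose, chosen after their values were seen, were the vesicle proteins Syp (0.34) and Sv2a (0.28) and the small GTPases Rab3b (0.54) and Rab3a (0.25). With one array left out at a time, 7 to 9 members rose, and the count was 7 with median centring and 11 with quantile normalization.

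Receptors for GABA and glutamate, the main inhibitory and excitatory transmitters, showed 7 higher and 0 lower of 27 tested, with a median of 0.24. Gabra2, a subunit of the GABA-A receptor, had 7.69, 8.00, 7.50 and 7.83 in PF and 8.63, 8.77, 9.21 and 9.21 in ZRPF. Each ZRPF array was above each PF array, a 2.29-fold difference (1.20 ± 0.17, adjusted p = 0.00011 in limma). Grin3a, a subunit of NMDA receptors, rose by 0.82 ± 0.13, and Gabbr1, of the metabotropic GABA-B receptor, by 0.38 ± 0.07. The 3 other tested probe sets of Gabbr1 stood at 0.12, -0.18 and 0.05 and were not called. Grm2, a presynaptic glutamate receptor, rose by 0.81 ± 0.18, though ZRPF 4 at 7.74 lay close to the PF range of 7.57 to 7.67. Grin1, the obligatory NMDA subunit (0.51), Grik5 (0.46) and Grm4 (0.51) rose too and were chosen after their values were seen. With median centring the counts were 6 higher and 1 lower.

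Voltage-gated channels went both ways. Of 22 sodium and calcium channel genes 4 rose and 2 fell, and of 26 potassium channel genes 5 rose and 2 fell. The shares called were 27.3% and 26.9%, beside 15.4% of all genes. Scn3a, a sodium channel of the developing brain, had 8.93, 9.09, 8.98 and 8.31 in PF and 9.93, 9.95, 9.75 and 9.99 in ZRPF. It was 2.11-fold higher, without overlap (1.08 ± 0.13, adjusted p = 1.78e-05 in limma). Cacna1g, the T-type calcium channel of thalamic bursting, rose by 0.63 ± 0.10. The auxiliary subunits Cacng3 (0.55) and Cacnb1 (0.78) rose as well, with a second Cacnb1 probe set at 0.17 that was not called. Scn4b, an auxiliary sodium channel subunit, fell by 0.40 ± 0.12 on the log2 scale and Cacna2d3, chosen after its value was seen, by 0.24 ± 0.07. Scn4b overlapped between the groups, since PF 4 at 10.93 lay below ZRPF 2 and ZRPF 6, and lost its call without PF 1, PF 2, PF 6, ZRPF 4 or ZRPF 5 (adjusted p up to 0.11). Among potassium channels Kcnh2 rose by 0.67 ± 0.14 and the pacemaker channel Hcn2 by 0.41 ± 0.11, a call that was lost without PF 1 (adjusted p 0.0501). The auxiliary subunits differed from each other, with Kcnab2 at 0.30 ± 0.07 and Kcnab1 at -0.34 ± 0.08. With median centring, 4 sodium and calcium channel genes rose and 5 fell, and 3 potassium channel genes rose and 3 fell.

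Several genes of cholesterol synthesis and its control fell in ZRPF, and most were not called. The pathway runs from acetyl-CoA through mevalonate, squalene and lanosterol to cholesterol, which the brain makes for itself and uses above all for myelin. SREBP2, encoded by Srebf2, switches on its genes when sterols are low, and Insig proteins hold SREBP2 back when sterols are plentiful. Of 20 tested genes 5 fell and 1 rose, where 6.13% of all genes fell, and 17 of 20 lay below 0 with a median of -0.17. In the brightest of 5 bins of probe sets by signal, 10.8% were lower. This bin holds Msmo1 and the first Cyp51 probe set given below. Cyp51, which removes a methyl group from lanosterol, had 12.53, 12.36, 12.38 and 12.37 in PF and 11.95, 11.95, 11.99 and 11.88 in ZRPF. The lowest PF array was well above the highest ZRPF array, and the fold was 1.38 (-0.46 ± 0.05, adjusted p = 9.78e-06 in limma). A second, dimmer probe set of Cyp51 stood at -0.03 and was not called.

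Msmo1 and Nsdhl, of the steps after Cyp51, fell as well. Msmo1, a sterol oxidase, had 12.27, 12.21, 12.19 and 12.19 in PF and 11.74, 11.72, 11.91 and 12.03 in ZRPF (-0.36 ± 0.07, adjusted p = 0.00114), without overlap. Nsdhl, the dehydrogenase that acts after Msmo1, stood at -0.28 ± 0.07, and its second probe set at -0.01, which was not called. Insig1 (-0.37 ± 0.09) and Insig2 (-0.25 ± 0.08), chosen after their values were seen, complete the 5 that fell. The single gene that rose was Srebf2 itself, with 9.99, 10.09, 10.04 and 9.90 in PF and 10.74, 10.75, 10.53 and 10.62 in ZRPF (0.66 ± 0.08, adjusted p = 2.17e-05). The direction of Srebf2 was thus opposite to that of the 3 enzymes that fell. Later enzymes of the pathway, chosen after their values were seen, were not called, with Hsd17b7 at -0.08, Ebp at -0.26, Sc5d at -0.16 and Dhcr7 at -0.18. Of genes earlier in the pathway than Cyp51, also chosen after their values were seen, none of those given here was called. Mvk stood at -0.02, Mvd at -0.05, Idi1 at -0.07, Fdps at 0.01 and Lss at -0.23. Not every tested member is given, and a difference between early and late steps was not tested. With median centring 9 members fell, and with the GAPDH ratio as a covariate 1 did.

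Promoters are shown for the enzymes that fell, Cyp51, Msmo1 and Nsdhl, and for Srebf2, which rose. They are RefSeq sequences of the GRCr8 build from position -150 to position 20 relative to the start of the gene, written 5′ to 3′ on the strand of the gene, which is the plus strand for all 4. Capitals mark CCAAT or its complement ATTGG, the box bound by NF-Y, a factor known to act with SREBP2.
Cyp51, chr4:30991543-30991712: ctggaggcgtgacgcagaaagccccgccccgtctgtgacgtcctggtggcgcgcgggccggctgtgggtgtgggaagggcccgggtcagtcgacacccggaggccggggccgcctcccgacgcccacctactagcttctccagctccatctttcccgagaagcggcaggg
Msmo1, chr16:29746963-29747132: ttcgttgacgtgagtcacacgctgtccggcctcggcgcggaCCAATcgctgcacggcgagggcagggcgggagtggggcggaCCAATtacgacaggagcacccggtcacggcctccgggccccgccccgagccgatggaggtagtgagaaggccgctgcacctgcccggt
Nsdhl, chrX:155817210-155817379: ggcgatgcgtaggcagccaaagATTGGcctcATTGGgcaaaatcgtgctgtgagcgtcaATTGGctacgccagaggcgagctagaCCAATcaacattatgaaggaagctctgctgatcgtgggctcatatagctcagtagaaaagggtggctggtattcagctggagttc
Srebf2, chr7:115543157-115543326: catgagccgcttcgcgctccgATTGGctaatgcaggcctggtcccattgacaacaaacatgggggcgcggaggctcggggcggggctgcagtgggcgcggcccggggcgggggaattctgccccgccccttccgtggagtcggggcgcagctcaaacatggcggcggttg
The stretches hold 0, 2, 4 and 1 matches in this order, and the same stretch holds 0 matches in Insig1 and 1 in Insig2, which are not shown. In windows of 300 bases, from 250 before to 50 after the start, CCAAT was found on either strand in 13 of the 16 list members with a promoter in the table (81.2%) and in 37.7% of all promoters of that length. It was held by 4 of 5 members that fell and by 8 of 10 that were not called. The motif TCACNCCAC, a form of the sterol response element, was found on either strand in 0 of the 16 and in 1.13% of all promoters. A match is a description of letters in this window and not a binding site.

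Chaperones of the endoplasmic reticulum, which fold secreted and membrane proteins, showed 4 higher and 0 lower of 22 tested, with a median of 0.04. The share called, 18.2%, was near the 15.4% of all genes. Hyou1, a large chaperone of the compartment, had 7.69, 7.77, 8.05 and 7.80 in PF and 8.69, 8.96, 8.77 and 8.93 in ZRPF. It was 2.01-fold higher without overlap (1.01 ± 0.14, adjusted p = 0.000111 in limma). Calr, calreticulin, rose by 0.67 ± 0.10, Dnajc3, an inhibitor of stress kinases, by 0.53 ± 0.10, and Xbp1, a transcription factor of the unfolded protein response, by 0.32 ± 0.08. Hspa5, the main chaperone of the compartment, did not move with them: its signals were 12.90, 12.89, 12.57 and 13.08 in PF and 12.67, 13.06, 12.89 and 12.89 in ZRPF (0.02 ± 0.11, adjusted p = 0.944), and its sign was negative with quantile normalization or median centring.

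The list of cytosolic chaperones was split, with 4 of 24 higher and 3 lower, a share of 29.2% called beside 15.4% of all genes. Hspa4, a nucleotide exchange factor for Hsp70, fell from 11.16, 11.20, 11.09 and 11.02 to 10.55, 10.21, 10.25 and 10.70 (-0.69 ± 0.11), without overlap. Its co-chaperone St13 stood at -0.26 ± 0.06, and Dnajc7, a co-chaperone outside this list named for its small p, at -1.10 ± 0.17. Hspe1 (-0.24), a mitochondrial chaperone chosen after its value was seen, was the other list member that fell. Hspa1a, the stress-inducible Hsp70, rose by 0.88 ± 0.21 and its activator Hsf1 by 0.55 ± 0.11, with Stip1 (0.34) and Fkbp4 (0.44), chosen after their values were seen. Of 20 genes of serine synthesis and the amino acid response 3 rose and 0 fell, a share of 15% beside 15.4% of all genes, namely Atf5 (0.49 ± 0.08), Sesn2 (0.47 ± 0.10) and Shmt2 (0.35 ± 0.08).

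The machinery of energy and protein turnover showed small differences. Of 68 respiratory chain genes 5 fell and 2 rose, a share of 10.3% called, below that of all genes, although 47 of 68 lay below 0. Ndufb5, of complex I, was the clearest, with 12.78, 12.82, 12.74 and 12.89 in PF and 12.38, 12.52, 12.51 and 12.32 in ZRPF (-0.38 ± 0.07, adjusted p = 0.00107 in limma). The count depended on scaling, with 12 lower under quantile normalization and 17 under median centring. Sdhd stood at -0.18 and Ndufs1 at -0.20, with calls lost without PF 2, PF 6, ZRPF 2 or ZRPF 4 for Sdhd (adjusted p up to 0.073) and without PF 1, PF 2, PF 6, ZRPF 2 or ZRPF 6 for Ndufs1 (up to 0.0737). Ndufa4 stood at 0.27 and was not called under either other scaling, or without any PF array, ZRPF 4 or ZRPF 5 (up to 0.136). Of 17 glycolysis genes 4 rose (23.5%) and 0 fell, led by Pfkl, the liver-type phosphofructokinase, from 7.78, 7.76, 7.79 and 7.96 to 8.55, 8.30, 8.78 and 8.62 (0.74 ± 0.10). With median centring 1 rose and 1 fell, since Pfkm (0.20), Hk1 (0.35) and Aldoc (0.27) were then not called. Pfkm was also lost without PF 2, PF 4 or ZRPF 5 (adjusted p up to 0.0584), and Hk1 without PF 2, PF 6, ZRPF 2, ZRPF 5 or ZRPF 6 (up to 0.13). A second Pfkm probe set stood at -0.21 and was not called.

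Of 30 proteasome genes 5 fell and 1 rose, a share of 20% called beside 15.4% of all genes. Psmd14, the deubiquitinase of the lid, stood at -0.27 ± 0.06 and Psmd1, of the base, at 0.34 ± 0.09. Psmd7 (-0.19) and Psma2 (-0.21), chosen after their values were seen, Psmd6 (-0.18) and Psmb4 (-0.20) fell as well. Psmd6 was not called without PF 1, PF 2, PF 6, ZRPF 4 or ZRPF 5 (adjusted p up to 0.0922), and Psmb4 was not called in any fit without one array (up to 0.101). With one array left out 1 to 3 proteasome genes fell, and with median centring 12 did. Of 39 cytosolic ribosomal protein genes 1 rose, Rpl24 (0.19 ± 0.06), which was not called in any fit without one of the 8 arrays (adjusted p up to 0.118).

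Of 7 tested genes that mark the hypothalamus 3 rose and 0 fell, where 9.25% of all genes rose. The list had a median of 0.44, and 3 rose in every fit without one array. Its members were chosen with earlier results of these data known, so the count is no independent support. Nnat, neuronatin, which is also on the list for immature neurons, had 13.06, 13.25, 13.23 and 12.66 in PF and 13.95, 14.03, 13.59 and 13.71 in ZRPF (0.77 ± 0.12, adjusted p = 0.000219 in limma). Hap1, a partner of huntingtin abundant in hypothalamic neurons, had 11.08, 11.17, 11.10 and 10.85 in PF and 11.59, 11.45, 11.79 and 11.58 in ZRPF (0.55 ± 0.09). Nkx2-1, the transcription factor that specifies the ventral hypothalamus, had 7.36, 6.73, 7.10 and 7.20 in PF and 7.55, 7.68, 8.16 and 7.95 in ZRPF (0.74 ± 0.18). In each of the 3 every ZRPF array lay above every PF array. The other 4, Dlk1 (0.44), Calcr (0.29), Nts (0.07) and Tac1 (-0.03), chosen after their values were seen, were not called.

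The summed signal of the 7 hypothalamus genes, to which Nnat gives the largest part, was 10552 to 14525 in PF and 18677 to 22059 in ZRPF. That of the 18 thalamus genes overlapped, at 46084 to 51557 and 44734 to 49178, and the difference between the lists was not tested. Among the 18 thalamus genes, Cacna1g rose and 3 fell, a share of 22.2% called beside 15.4% of all genes. Those that fell were Foxp2, from 10.23, 10.42, 10.18 and 10.12 to 9.91, 9.60, 9.93 and 9.56 (-0.49 ± 0.10), Ramp3 (-0.43 ± 0.14) and Synpo2 (-0.31 ± 0.10). In ZR against ZD, Foxp2 stood at -0.01 and Synpo2 at 0.04, while Ramp3 stood at -0.54 and Cacna1g at 0.72. Ramp3 stayed called when PF 4 was left out and was lost without any other array (adjusted p up to 0.122), and Synpo2 was lost without PF 2, PF 6, ZRPF 4, ZRPF 5 or ZRPF 6 (up to 0.153). In whole tissue, a larger share of hypothalamus in the piece and more RNA per hypothalamic cell cannot be told apart, and the tissue was taken out with forceps.

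Of 15 tested feeding peptides and receptors 2 rose and 0 fell, a share of 13.3% called beside 15.4% of all genes. Hcrt, orexin, had 9.90, 10.23, 10.04 and 10.09 in PF and 10.31, 10.39, 10.38 and 10.38 in ZRPF (0.30 ± 0.09, adjusted p = 0.0266 in limma). Its groups did not overlap, but it was not called with median centring or without PF 1, PF 4, ZRPF 4, ZRPF 5 or ZRPF 6 (adjusted p up to 0.094). Bdnf, a growth factor that restrains feeding, stood at 0.44 ± 0.13 and was not called under either other scaling, or without PF 1, PF 6, ZRPF 5 or ZRPF 6 (adjusted p up to 0.11). Npy, which drives feeding, had 10.38, 10.32, 10.49 and 10.24 in PF and 10.55, 10.58, 10.48 and 10.42 in ZRPF (0.15 ± 0.11, adjusted p = 0.395). The groups overlapped. The appetite-reducing Cartpt stood at 0.30 ± 0.13 and Pmch, melanin-concentrating hormone, at 0.09 ± 0.07, neither called. Neither Pomc, which was too dim to be tested, nor Agrp has a value here.

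Vasopressin (Avp) and oxytocin (Oxt), the hormones of the neurohypophysis, were not called. Oxt had 11.97, 12.46, 12.45 and 12.13 in PF and 13.03, 13.00, 12.84 and 12.83 in ZRPF. All ZRPF arrays were above all PF arrays, as were those of 1102 of all 9278 genes (11.9%), and its adjusted p of 0.0502 in limma just missed the threshold (0.67 ± 0.23). It was called in the fit of the 8 arrays alone. Avp had 11.47, 11.71, 11.67 and 11.37 in PF and 12.26, 11.91, 12.06 and 11.95 in ZRPF, also without overlap (0.49 ± 0.29, adjusted p = 0.267), and was called in the fit of the 8 arrays alone. Of 17 genes of salt and water balance 1 rose and 1 fell (11.8% called, where 15.4% of all genes were). These were the chloride transporters Slc12a5, also known as KCC2, which rises as neurons mature (12.74, 12.54, 12.46 and 12.61 against 12.92, 13.01, 12.90 and 12.85, a difference of 0.33 ± 0.07), and Slc12a2, also known as NKCC1, the importer that it replaces (-0.26 ± 0.07). Slc12a2 lost its call without PF 1, PF 6, ZRPF 5 or ZRPF 6 (adjusted p up to 0.084).

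Of 13 tested genes of puberty and the growth hormone axis 2 rose and 1 fell (23.1% called, where 15.4% of all genes were). Igfbp5, a binding protein of insulin-like growth factors, had 10.07, 10.09, 10.22 and 10.10 in PF and 10.72, 10.83, 10.74 and 11.13 in ZRPF (0.74 ± 0.09, adjusted p = 1.95e-05 in limma). A second, dimmer probe set stood at -0.26 and was not called. Igf1, the growth factor itself, had 8.96, 9.38, 9.08 and 9.30 in PF and 8.54, 8.56, 8.83 and 8.87 in ZRPF (-0.48 ± 0.11), without overlap, with a second probe set at 0.01. Its receptor Igf1r stood at 0.35 ± 0.10, a call lost without PF 1, PF 2, ZRPF 2 or ZRPF 6 (adjusted p up to 0.083). Of 11 genes of thyroid hormone action 3 rose (27.3%), led by the receptor Thra, from 9.45, 9.41, 9.54 and 9.31 to 10.00, 9.81, 10.21 and 10.10 (0.61 ± 0.10), with a second probe set at 0.33. Pgpep1 (0.34) and Rxrb (0.33) rose on a narrower margin, and Rxrb was not called under either other scaling. Pgpep1 was lost without ZRPF 4 (adjusted p 0.0537), and Rxrb without any array but PF 6 and ZRPF 6 (up to 0.143).

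Myelin genes went both ways. Of 20 tested, 4 fell and 2 rose, a share of 30% called beside 15.4% of all genes. Sox10, the transcription factor of the oligodendrocyte lineage, had 8.85, 8.59, 8.72 and 8.61 in PF and 9.75, 9.84, 9.58 and 9.30 in ZRPF (0.92 ± 0.11, adjusted p = 2.95e-05 in limma). Mag, an adhesion protein of the inner myelin layer, had 11.86, 11.80, 11.97 and 11.64 in PF and 11.63, 11.38, 11.26 and 11.63 in ZRPF (-0.34 ± 0.10). The groups came close to touching, and the call was lost without PF 1, PF 4, ZRPF 4 or ZRPF 5 (adjusted p up to 0.076). Ugt8 (-0.46 ± 0.11) and Gal3st1 (-0.48 ± 0.13), which make the galactolipids of myelin, and Tspan2 (-0.33), chosen after its value was seen, also fell. Gal3st1 was not called without PF 1, ZRPF 5 or ZRPF 6 (adjusted p up to 0.0591). Mbp, myelin basic protein, gave opposite answers on its 3 probe sets, all called, at 0.30, -0.55 and -0.57. The first of these lost its call without any one of PF 2, PF 4, PF 6, ZRPF 2, ZRPF 4 and ZRPF 5 (adjusted p up to 0.0926). No member of the oligodendrocyte precursor list (9 tested) was called.

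Astrocyte genes showed 4 higher and 0 lower of 17 (23.5% called, where 15.4% of all genes were). Beside Atp1b2 these were Cbs, of cysteine synthesis (0.66 ± 0.12), S100b, a calcium-binding protein (0.33 ± 0.08), and Aldoc, the aldolase of astrocytes (0.27 ± 0.07). The summed signal of the 17 was 108795 to 127911 in PF and 126790 to 143408 in ZRPF, with a slight overlap. Microglial genes showed 1 of 12 higher (8.33%), Csf1r, the receptor that keeps these cells alive (0.56 ± 0.12). Of 16 endothelial and 14 meningeal and mural genes none was called, and of 8 genes of ependyma and tanycytes 2 rose, Vim (0.42 ± 0.10) and Ak7 (0.63 ± 0.15).

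Markers of choroid plexus, the tissue that secretes cerebrospinal fluid and borders the diencephalon, varied widely between arrays. Ttr, transthyretin, its most abundant product, had 8.33, 8.09, 10.37 and 7.71 in PF and 9.03, 11.04, 14.37 and 14.02 in ZRPF. ZRPF 5 and ZRPF 6 were far above all others, ZRPF 2 lay within the PF range, and the difference of 3.49 ± 1.28 was not called (adjusted p = 0.0717 in limma). Without ZRPF 2 it was called (adjusted p = 0.026). All 7 tested choroid plexus genes lay above 0, with a median of 0.87, and none was called with all 16 arrays. Of the 7, 4 were called higher without ZRPF 2, 1 without ZRPF 4 and 2 in the fit of the 8 arrays alone. Their summed signal was 1102 to 2243 in PF and 1385 to 24682 in ZRPF. In the other line it was 1880 to 11727 in ZD and 1250 to 22975 in ZR. The amount of choroid plexus in each piece was not tested.

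Markers of neighbouring tissue were few. Of 9 genes of cortex and hippocampus 1 fell (Prox1, -0.31, not called without PF 1, PF 4, ZRPF 5 or ZRPF 6, adjusted p up to 0.137), and their summed signal overlapped, at 6444 to 9144 and 6104 to 7413. Of 12 genes of striatum Gng7 rose (0.85 ± 0.21) and Scn4b fell, with sums of 8856 to 12307 and 8563 to 11228. None of 3 midbrain genes, 1 pituitary or pineal gene and 1 blood gene was called. Hbb, the marker of blood, had 12.02, 12.07, 12.08 and 12.26 in PF and 12.00, 11.94, 11.66 and 12.08 in ZRPF (-0.18 ± 0.18, adjusted p = 0.54).

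**Figure D4:**
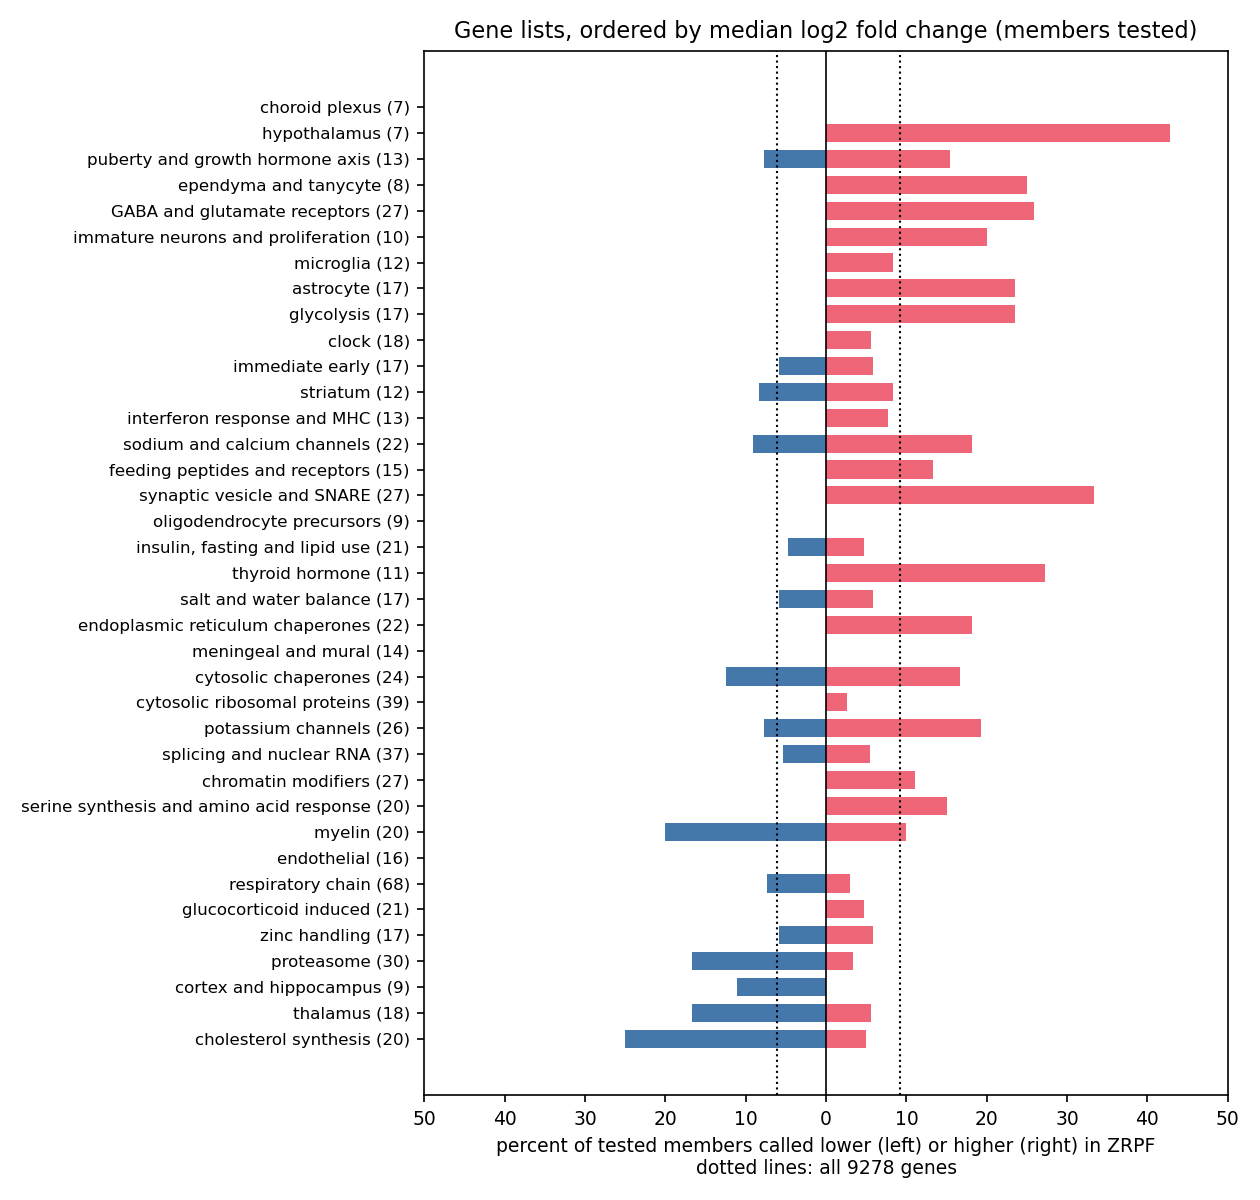
Share of the tested members of each of 37 gene lists with at least 7 tested members that were called higher (red, right) or lower (blue, left) in ZRPF, ordered by the median log2 fold change of the list, with the shares over all 9278 genes as dotted lines (9.25% higher, 6.13% lower). Hypothalamus, synaptic vesicle, thyroid hormone and transmitter receptor genes reach furthest to the right, and cholesterol synthesis genes furthest to the left.

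Few genes of rhythm, neuronal activity and glucocorticoid action were called: 5.56% of the clock list, 11.8% of the immediate early list and 4.76% of the glucocorticoid list, where 15.4% of all genes were. Of 18 clock genes 1 rose, Rorb, from 7.46, 7.10, 6.53 and 6.77 to 8.06, 8.78, 8.17 and 8.02 (1.30 ± 0.32, adjusted p = 0.011 in limma), without overlap. The clock genes Per1 (0.11 ± 0.18), Per2 (0.08 ± 0.09), Dbp (-0.02 ± 0.12) and Nr1d1 (0.17 ± 0.15) were not called, and each overlapped between the groups. Of 17 immediate early genes, which answer to neuronal activity, Klf4 rose (0.49 ± 0.10) and Jun fell (-0.39 ± 0.09, with -1.40 on a second probe set). Fos had 10.56, 10.54, 10.18 and 10.27 in PF and 10.53, 10.42, 10.25 and 10.31 in ZRPF (-0.01 ± 0.18, adjusted p = 0.983), and Egr1 stood at 0.40 ± 0.17. Of 21 genes induced by glucocorticoids 1 rose, Fam107a (0.43 ± 0.14), which was called without PF 6 but in no other fit without one array (adjusted p up to 0.123).

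Of the cold-inducible RNA-binding proteins, Cirbp fell by 0.26 ± 0.08 on the log2 scale and by 0.58 and 0.61 on its other probe sets, while Rbm3 stood at 0.01 ± 0.12. The first Cirbp probe set was lost without PF 1, PF 2, PF 4, ZRPF 2 or ZRPF 4 (adjusted p up to 0.103). Of 17 zinc handling genes Mt3, the brain metallothionein, rose (0.32 ± 0.10) and Slc30a9 fell (-0.26 ± 0.08), but Mt3 was called only without ZRPF 5 or ZRPF 6 among the fits without one array (adjusted p up to 0.103), and Slc30a9 only without ZRPF 5 (up to 0.112). Mt2A stood at -0.10 ± 0.19 and the importer Slc39a10 at -0.11 ± 0.06, neither called, in rats that were zinc-sufficient on both days. Of 21 genes of insulin action and lipid use Irs2, a docking protein of the insulin receptor, rose (0.34 ± 0.08) and Elovl6, a fatty acid elongase, stood at -0.46 ± 0.14, a call lost without PF 1, PF 2, PF 4, ZRPF 4 or ZRPF 6 (adjusted p up to 0.0931). The interferon and MHC list had 1 of 13 higher, B2m (0.25 ± 0.08), which stayed called when ZRPF 6 was left out and was lost without any other array (adjusted p up to 0.145). A second B2m probe set stood at -0.09 and was not called. Beside 15.4% of all genes, 11.8% of the zinc handling list, 9.52% of the insulin list and 7.69% of the interferon list were called.

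In the nucleus, the chromatin list had 3 of 27 higher and 0 lower, a share of 11.1% called beside 15.4% of all genes. With median centring 3 of its members rose and 3 fell. Kmt2a, a histone methyltransferase, had 9.40, 9.36, 9.35 and 9.36 in PF and 9.94, 10.17, 10.25 and 10.10 in ZRPF (0.75 ± 0.08, adjusted p = 7.74e-06 in limma). Its relative Kmt2d rose by 0.78 ± 0.12 and Arid1a, of the SWI/SNF remodeller, by 0.31 ± 0.07, while a dimmer Kmt2a probe set stood at 0.17. Among 37 genes of splicing and nuclear RNA Srsf2 (0.25) and Acin1 (0.41) rose, and Pspc1, a paraspeckle protein (-0.55), and Pnn (-0.54) fell. The share called was 10.8%, below that of all genes. With median centring 0 members of this list rose and 6 fell. Other probe sets stood at -0.19 for Srsf2 and 0.02 for Acin1, neither called, and at -0.95 for Pnn, which was called. In Pspc1 ZRPF 6, at 10.39, stood apart from 9.78 to 9.80 in the others of its group and lay within the PF range. Pnn lost its call without PF 4 or ZRPF 5 (adjusted p up to 0.0587), and Acin1 without any of 6 arrays, all but PF 6 and ZRPF 4 (up to 0.102). Genes of immature neurons showed 2 of 10 higher, Nnat and Marcksl1 (0.35 ± 0.07), a regulator of actin. Dcx, of migrating neurons, stood at 0.18 ± 0.17, and Sox11 lay below the filter. The opioid precursors Pdyn (-0.06) and Penk (0.02) and the growth factor Igf2 (0.27 ± 0.31) were not called.

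Whether these differences were particular to the pair-fed rats was asked by setting them beside ZR against ZD. These groups have the same sampling days in the zinc-deprived line and share no array with PF and ZRPF. ZR rats were back on 30 mg zinc per kg, while ZD rats stayed at 0.6. Sampling day and zinc supply therefore cannot be told apart in that line. Of the 2430 probe sets called in the pair-fed rats, 2354 had the same sign there, and 1407 were also called in the same direction (57.9% of the calls in the pair-fed rats and 52.3% of the 2692 in the zinc-deprived line, where 9.16% of probe sets were higher on day 16 and 8.18% lower). Among probe sets not called in the pair-fed rats 67.5% had the same sign. The labelling controls moved alike in both lines, as given above. For Atp1b2 the difference was 0.98 in the pair-fed and 1.11 in the zinc-deprived line, for Syn1 0.87 and 0.90, for Hyou1 1.01 and 0.98, and for Cyp51 -0.46 and -0.42.

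The interaction, which tests the difference between the lines, called 0 of 15521 probe sets in limma (1025, or 6.6%, at an unadjusted p under 0.05), with a smallest adjusted p of 0.375. Without ZRPF 4 it called 1. The genes with the smallest unadjusted p are given as values. Clstn3, a calsyntenin of synapses, had 8.07, 7.57, 7.91 and 8.38 in PF and 9.84, 9.56, 9.00 and 9.18 in ZRPF, a difference of 1.41 ± 0.26 that was called, against -0.46 in the zinc-deprived line. Vim stood at 0.42 and -0.32, Tbc1d13 at 0.41 and -0.34, and Cdh15, a cadherin, at 0.47 and -0.30. Tax1bp3 stood at 0.28 and -0.50 and Tagln, of smooth muscle, at 0.22 and -0.85. In the other direction, Lyrm2 stood at 0.09 in the pair-fed and 0.62 in the zinc-deprived line, Cfdp1 at -0.30 and 0.14, Zfp638 at -0.14 and 0.41 and Tra2a at -0.14 and 0.36. Dpm1 stood at -0.38 and -0.05 and Vwc2 at -0.44 and 0.17. The calls in the pair-fed rats were lost without PF 2 or ZRPF 5 for Vwc2 (adjusted p up to 0.0624) and without PF 6, ZRPF 2 or ZRPF 5 for Tbc1d13 (up to 0.072). For Tra2a and Zfp638 dimmer probe sets rose in the pair-fed rats, by 0.38 and 0.64.

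**Figure D5:**
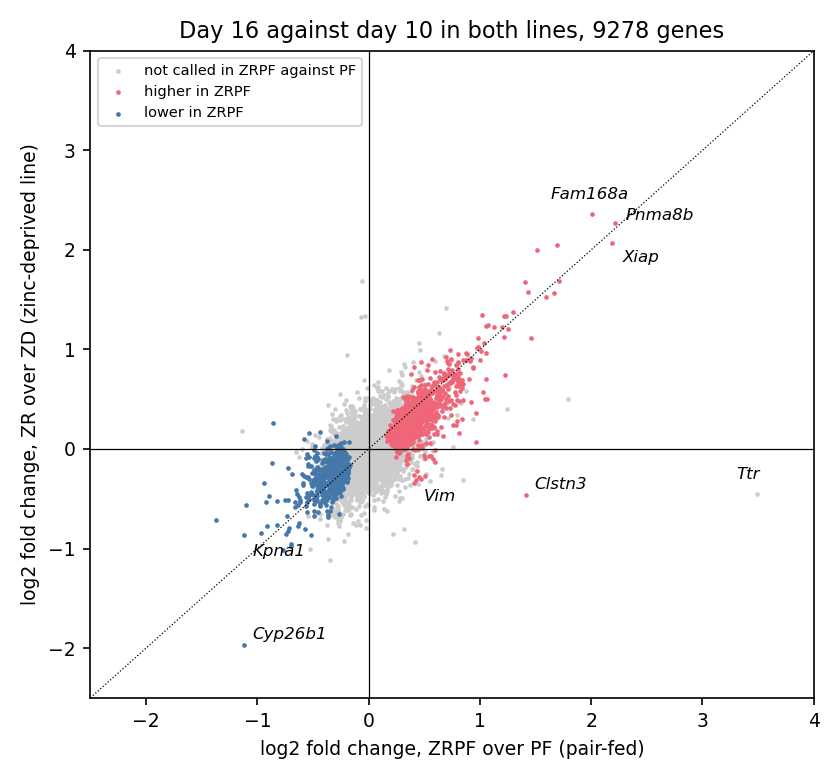
Log2 fold change of day 16 over day 10 in the pair-fed rats (horizontal, ZRPF over PF) and in the zinc-deprived line (vertical, ZR over ZD) for 9278 genes, coloured by their call in the pair-fed rats, with the line of equal change dotted. Most called genes lie near the dotted line, whereas Clstn3 (1.41 and -0.46) and Ttr (3.49 and -0.45) lie far from it.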

How the data were processed

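Diencephalon RNA (100 ng per rat) was labelled with the GeneChip 3′ IVT Express Kit and hybridised to 1 array per rat, per the labels' protocols. The deposited values are linear signal intensities made by the authors with MAS5, per the submitters' processing notes, with the version not given in the sources used here. The 2% trimmed mean of each array was 500.135 to 500.147.

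Intensities were put on the log2 scale. Of 31099 probe sets, 57 controls were set aside, and 15521 at or above the median mean signal (163, log2 7.35) were tested with limma 3.58.1 in R 4.3.3 (16 arrays, 4 groups, intensity trend, Benjamini-Hochberg adjusted p below 0.05). Probe sets were named where the platform annotation gives 1 gene (20826); 436 have several and 9780 none. The code was tested on simulated data. P-values measure the spread between selected rats.

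Genes named are up to 12 per direction by p, 6 per direction by fold change, up to 4 per list, a panel, and up to 6 per direction by interaction p. The members and lists were chosen with earlier results of these data known. Alternatives covered scaling, filters, offset, weights, arrays fitted, covariates and single arrays left out.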

Additional observations from a re-analysis of the deposited data

Results flagged for a closer look

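In 11 of 304 groups of 4 arrays among the named genes, 1 array stood far from the other 3 (gap over the group's range above Dixon's critical value of 0.829), where chance gives about 1 group in 20. In ZRPF these were Atp1b2 in array 4 (12.64), Naa15 in array 2 (10.54), Kpna1 in array 5 (8.97), Hcrt in array 2 (10.31), Pspc1 in array 6 (10.39) and Grm2 in array 4 (7.74). In PF they were Vamp2 in array 4 (11.85), Cyp51 in array 1 (12.53), and, in array 6, Pfkl (7.96), Grin3a (7.17) and Slc39a10 (11.06).

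Cdh15 and Tax1bp3, both named for a small interaction p, had opposite signs in the pair-fed and zinc-deprived lines. Their groups did not overlap in either line, and the share of all genes with this pattern was not counted. Tax1bp3 was not called in the pair-fed rats (adjusted p = 0.124 in limma), nor Cdh15 in the zinc-deprived line (adjusted p = 0.0955 in limma). The difference between the lines was -0.77 for Cdh15 and -0.78 for Tax1bp3, and the interaction was called for neither (adjusted p = 0.52 for both in limma).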

How the results depend on the processing

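Of 126 named genes called in the pair-fed comparison, 117 stayed called with quantile normalization, 108 with median centring, 110 without a filter, 53 with the GAPDH ratio as a covariate, 1 with the beta-actin ratio, 0 with the poly-A mean, 72 with the replicate block and 102 to 110 without one array, where 93 of them were called in every such fit. Probe sets called, in all, higher and lower, were 3121, 975 and 2146 with median centring, 771, 544 and 227 with the GAPDH ratio, 7, 5 and 2 with the beta-actin ratio (chosen after seeing the data) and 849, 640 and 209 at a log2 difference of at least 0.5. Over genes with 1 probe set each they were 1427, 858 and 569. With the poly-A mean as a covariate 0 were called by limma, with 954 at an unadjusted p under 0.05, and 2189 of the 2430 (90.1%) kept their sign. Without one array the counts were 1681 to 2264 in all, 1085 to 1382 higher and 596 to 882 lower, with 634 lower without PF 1 and 596 without PF 2. The interaction called 0 to 1, with 1 without ZRPF 4.

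The arrays of equal number share only a number: their deviations from the group means correlated at 0.08, 0.02 and 0.04, against -0.10 to 0.08 between unlike numbers. With the number as a replicate block, in a fit of the 8 pair-fed arrays, the count was 1099, with 757 higher and 342 lower.

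With array weights, values of opposite sign were Penk -0.011 and Rbm3 -0.0057. With the beta-actin ratio covariate, values of opposite sign were Avp -0.29, B2m -0.088, Dbp 0.060, Npy -0.20, Pdyn 0.028, Penk -0.0069, Per1 -0.70, Per2 -0.061, Pspc1 0.071, Rxrb -0.0091 and Scn4b 0.011. With the GAPDH ratio covariate, values of opposite sign were Avp -0.030, Dbp 0.0092, Hspa5 -0.0068 and Penk -0.31. With median centring, values of opposite sign were Hspa5 -0.069, Penk -0.066, Per2 -0.0045 and Rbm3 -0.080. With the poly-A covariate, values of opposite sign were Arid1a -0.11, B2m -0.026, Bdnf -0.28, Cartpt -0.28, Egr1 -0.29, Fam107a -0.48, Grm2 -0.73, Hbb 0.69, Hspa1a -1.52, Hspa5 -0.47, Igf2 -1.70, Jun 0.30, Lyrm2 -0.29, Penk -0.34, Per1 -0.41, Per2 -0.56, Pmch -0.076, Rab5c 0.17, Tagln -0.49, Tbc1d13 -0.17 and Vof16 -1.64. With quantile normalization, values of opposite sign were Fos 0.010 and Hspa5 -0.00037. With the replicate block, values of opposite sign were Fos 0.091, Mt2A 0.080 and Per2 -0.028. Without one array the sign turned for Dbp (-0.11 to 0.053), Fos (-0.077 to 0.050), Hspa5 (-0.080 to 0.089), Mt2A (-0.27 to 0.074), Pdyn (-0.21 to 0.046), Penk (-0.15 to 0.27) and Rbm3 (-0.069 to 0.073). The cause of these turns was not tested. Probe sets below a log2 signal of 7.35 were not tested, and 4 arrays a group limit what can be detected.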

Other observations

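The share of probe sets lower in ZRPF grew with signal and that of higher ones did not. With the tested probe sets in 5 bins of equal number, from the dimmest to the brightest, 2.61%, 3.48%, 5.57%, 8.31% and 10.8% were lower, while 8.83% to 9.79% were higher.

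Probe sets of one gene did not always move together. Of 116 genes with at least 2 called probe sets, 24 (20.7%) had calls in both directions. Rdx, radixin, which links membranes to actin, ran from -1.13 to 1.10, and Csnk2a1, a catalytic subunit of casein kinase II, from -1.51 to 0.64. Pakap stood at -0.26 and 2.33. Slc1a3, the glutamate transporter of astrocytes, had called values of 1.23 and -0.67 and 0.11 on its brightest probe set. These genes were chosen after their values were seen, and the positions of the probes were not used here.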
